A study of Neurospora crassa with 18 samples.

Results

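The 7 *Neurospora crassa* genes described here act in the sensing of glucose, its uptake and the use of starch and sucrose. They are the regulators *cre-1* (NCU08807) and *col-26* (NCU07788), the sensor *rco-3* (NCU02582), the transporters *hgt-1* (NCU10021) and *glt-1* (NCU01633), and the secreted enzymes *gla-1* (NCU01517) and *inv* (NCU04265). They were chosen by gene identifier, as 7 of the 9730 genes in the deposited tables. No measured value entered the rule, but earlier results of these data were known when the genes were chosen. An NC12 gene table gave the same symbol for 5 of them, gave *rco-3* as a synonym, and listed *glt-1* by its locus tag only. No identifier was dropped, each gene had a value in every library, and all 7 were tested in every comparison.

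mRNA-seq of mycelia was analyzed in 18 libraries of 3 strains. WT (FGSC4200) and the *cpc-1* deletion strain (*cpc-1Δ*) were sampled in 2% glucose medium (3 and 2 libraries), in the same medium after 8 h of treatment with 3-aminotriazole (3-AT, 5 mM) (3 and 3 libraries), and in 0.1% glucose medium (2 and 2 libraries). The other strain, *cpc-1Δ*, *cpc-1*(WT), in which a *cpc-1*(WT) transgene was placed at *csr-1* in the deletion background, was sampled only with 3-AT (3 libraries). The protocol in the labels gives Vogel's medium, room temperature and constant light for WT and *cpc-1Δ*, and names no other conditions for the strain with the transgene. The 0.1% glucose medium also held 0.17% arginine, which the 2% medium lacked, so that the effects of low glucose and of arginine cannot be told apart. CPC-1 is the transcription factor that activates amino acid biosynthetic genes in starved cells, and 3-AT starves cells of histidine. The transgene is driven by the *ccg-1* promoter and not by that of *cpc-1*. Nothing in the labels says that libraries of a group came from separate cultures, so that the *P* values measure only the spread between these libraries.

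As long as glucose is plentiful, filamentous fungi keep the genes for other carbon sources off, largely through CRE-1, a repressor in the family of yeast Mig1. RCO-3 is a membrane protein that resembles sugar transporters and acts as a glucose sensor. When glucose runs low, the cells turn to high-affinity transporters such as HGT-1 in place of the low-affinity transporter GLT-1. They also secrete glucoamylase (GLA-1), which frees glucose from starch, and invertase (INV), which splits sucrose. COL-26 is a transcription factor needed for the use of starch and for the response to glucose.

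The deposited values are RPKM, that is, reads scaled for transcript length and for the total of the library, and they were tested as log2(RPKM + 1) with limma. All *P* values given are adjusted over all genes tested by the Benjamini-Hochberg method, with a threshold of 0.05, and log2 fold changes are on the log2(RPKM + 1) scale. Summed over all genes, the RPKM of a library came to 258726 to 423848 in the groups of 3 and to 515150 to 546387 in the groups of 2. Differences between groups therefore include a difference in scale. Most are also given after each library was scaled by the median of its ratios to the mean over libraries ("scaled"). Levels, and differences without a scaled value, are as deposited. Over all genes, this scaling moved the median log2 fold change by over 0.1 in every comparison except 3. As deposited, that median was 0.40 for low glucose in WT, −0.38 for 3-AT in *cpc-1Δ* and −0.17 for 3-AT in WT. Between *cpc-1Δ* and WT it was 0.43 without 3-AT and 0.28 with it. It was 0.00 for low glucose in *cpc-1Δ* and −0.02 between the strains in low glucose, and in these comparisons the scale hardly matters. The deletion was visible in the labelled libraries, since *cpc-1* had mean levels of 424 to 1141 RPKM in the WT groups, 2.20 to 4.13 RPKM in the *cpc-1Δ* groups and 71.6 RPKM in the strain with the transgene. The depth of the libraries is unknown.

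**Figure D1:**
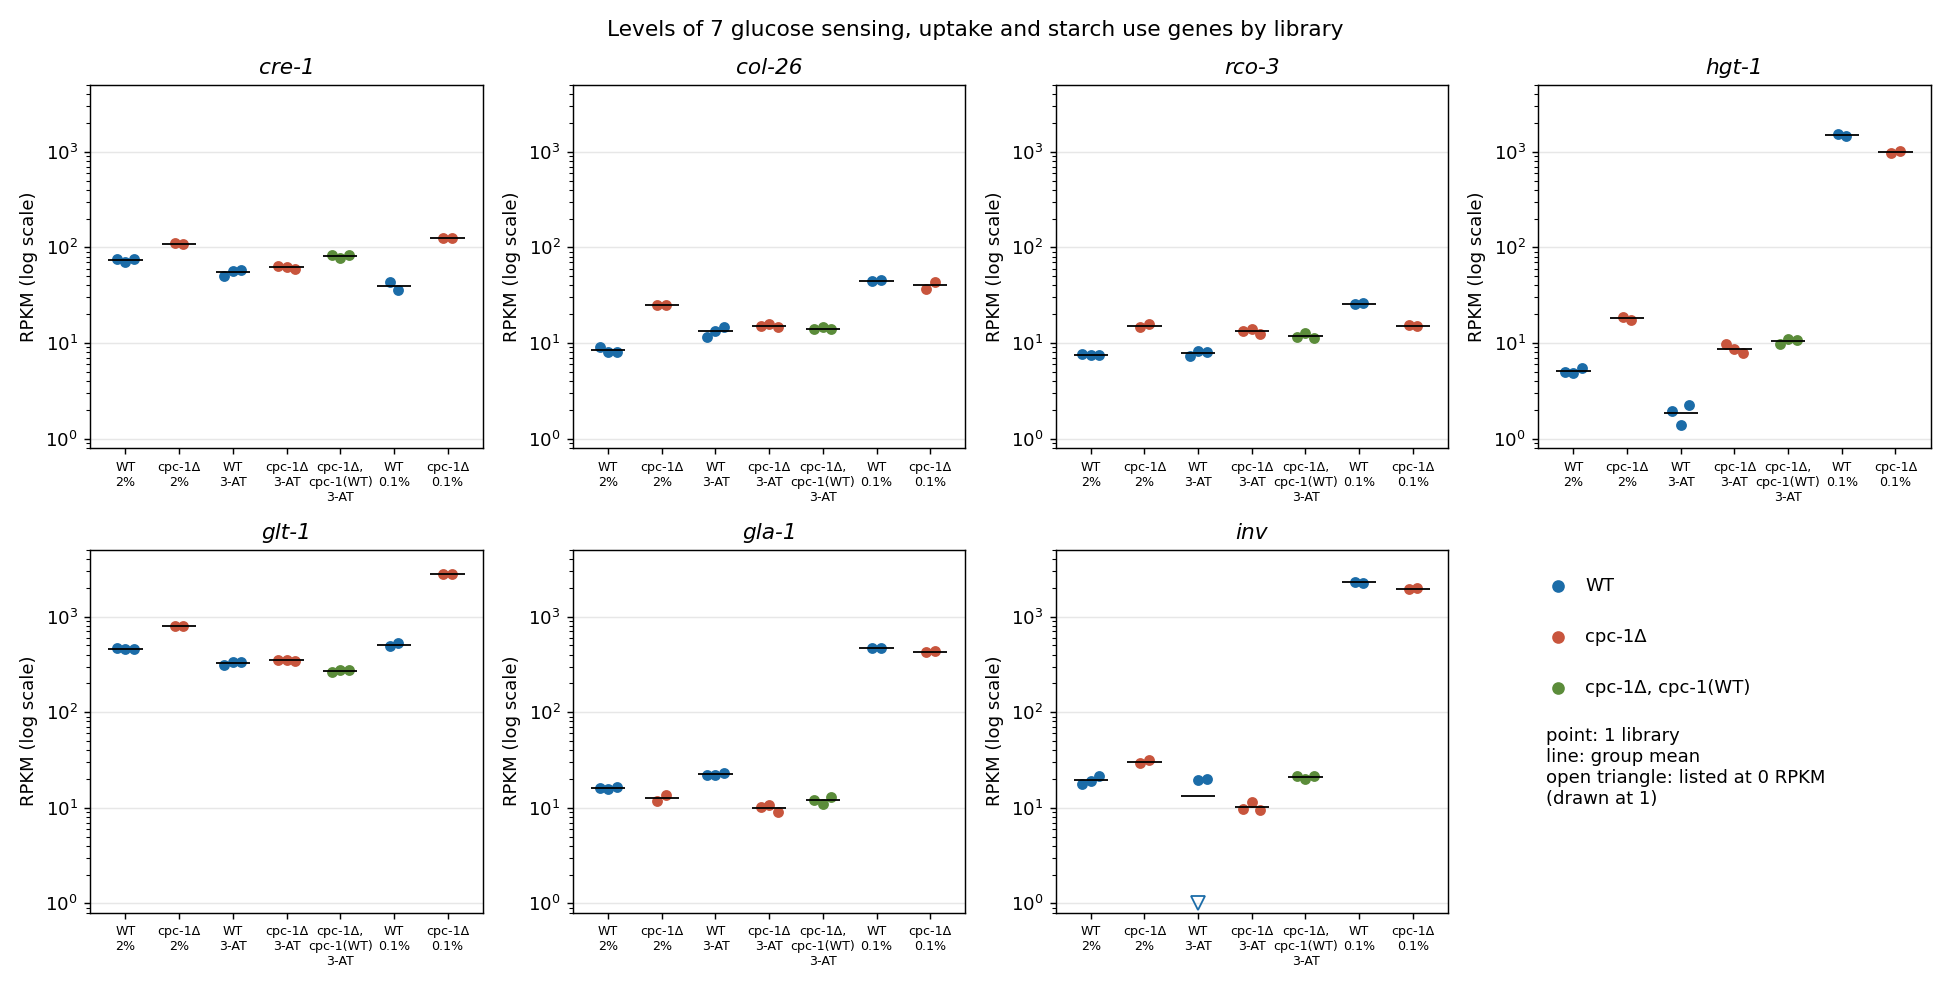
RPKM (log axis) of the 7 genes in each of the 18 libraries, by strain and culture. Points are libraries, lines are group means, and an open triangle marks a library listed at 0 RPKM. *hgt-1*, *gla-1* and *inv* stand highest in the 0.1% glucose libraries of both strains, whereas *glt-1* and *cre-1* are highest in *cpc-1Δ* in 0.1% glucose medium.

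In 0.1% glucose medium, *hgt-1*, *gla-1* and *inv* rose in both strains, from group means of 5.12 to 30.4 RPKM to group means of 430 to 2274 RPKM. *glt-1* rose only slightly or fell in WT, depending on the scale, but rose 3.52-fold in *cpc-1Δ*. In WT, *col-26* and *rco-3* rose and *cre-1* fell. In *cpc-1Δ*, *col-26* rose by less, and neither *rco-3* nor *cre-1* passed the test. As deposited, 6 of the 7 genes were higher and 1 was lower in WT, where 45.0% of the 9013 genes tested were higher and 14.3% lower. After scaling, 5 were higher and 2 lower, against 26.3% and 26.8% of all genes. In *cpc-1Δ*, 5 were higher and 0 lower, against 13.3% and 14.9% of all genes, and after scaling the counts were 5 and 0, against 14.4% and 13.6%. These samples are of whole mycelia, in which fewer cells of a type and less RNA per cell cannot be told apart.

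**Figure D2:**
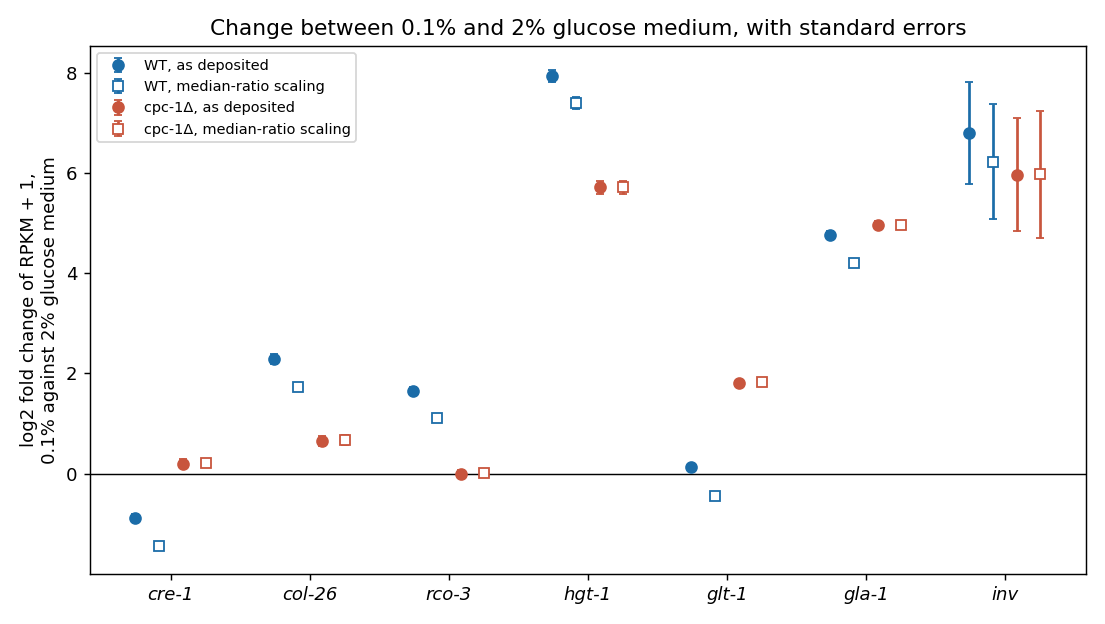
Log2 fold change of RPKM + 1 between 0.1% and 2% glucose medium for each gene in WT (blue) and *cpc-1Δ* (red), as deposited (filled circles) and after median-ratio scaling (open squares), with standard errors. *cre-1* lies at −0.88 in WT and 0.20 in *cpc-1Δ* as deposited, and *hgt-1* at 7.94 and 5.71. The long bars of *inv* come with a library listed at 0 RPKM in another group.

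*cre-1* was listed at 75.2, 70.9 and 75.2 RPKM in the WT libraries in 2% glucose medium and at 43.3 and 36.0 RPKM in those in 0.1% glucose medium. In *cpc-1Δ*, it had 111 and 108 RPKM in 2% glucose medium and 124 and 126 RPKM in 0.1% glucose medium. Thus, its lowest values among the 18 libraries were those of WT in 0.1% glucose medium, its highest were those of *cpc-1Δ* in the same medium, and groups next to each other in the order of the means did not overlap. In WT, the log2 fold change with low glucose was −0.88 (standard error of 0.08, adjusted *P* = 3.5e-06), or −1.45 scaled. In *cpc-1Δ*, it was 0.20 (95% interval of −0.01 to 0.40, adjusted *P* = 0.14). These changes differed between the strains by 1.08 on the log2 scale (standard error of 0.12, adjusted *P* = 2.9e-05), and by 1.67 scaled. The level of this repressor gene in 0.1% glucose medium was 3.16 times as high in *cpc-1Δ* as in WT (log2 fold change of 1.64, adjusted *P* = 7.0e-08), with the same log2 fold change after scaling. In 2% glucose medium, the difference of 0.56 as deposited (adjusted *P* = 1.6e-04) came to −0.02 scaled (adjusted *P* = 0.84).

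*col-26* was low in WT in 2% glucose medium, at 9.17, 8.03 and 8.07 RPKM, and reached 44.1 and 45.4 RPKM in 0.1% glucose medium. In *cpc-1Δ*, the levels were 25.2 and 25.0 RPKM in 2% glucose medium and 37.0 and 43.3 RPKM in 0.1% glucose medium. The strains were thus far apart in 2% glucose medium and close to each other in 0.1% glucose medium. The log2 fold change with low glucose was 2.28 in WT (standard error of 0.10, adjusted *P* = 5.4e-09, 1.73 scaled) and 0.65 in *cpc-1Δ* (standard error of 0.11, adjusted *P* = 9.5e-04, 0.67 scaled). The strains differed in this change by −1.63 (standard error of 0.14, adjusted *P* = 4.0e-06), or −1.06 scaled. In 2% glucose medium, *col-26* was higher in *cpc-1Δ* than in WT by 1.47 (adjusted *P* = 3.6e-07), or 0.92 scaled. The difference in 0.1% glucose medium was −0.16 (95% interval of −0.39 to 0.08, adjusted *P* = 0.26).

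*rco-3*, the sensor gene, had 7.64, 7.47 and 7.44 RPKM in WT in 2% glucose medium and 25.5 and 26.1 RPKM in 0.1% glucose medium. In *cpc-1Δ*, it had 14.6 and 15.9 RPKM in 2% glucose medium and 15.4 and 14.9 RPKM in 0.1% glucose medium. The WT libraries in the 2 media did not overlap, whereas those of *cpc-1Δ* did. *rco-3* rose 3.43-fold in WT (log2 fold change of 1.65, standard error of 0.06, adjusted *P* = 2.9e-09), or 2.30-fold scaled. In *cpc-1Δ*, the log2 fold change was −0.01 (95% interval of −0.17 to 0.15). The interaction of strain with low glucose was −1.66 (standard error of 0.10, adjusted *P* = 1.6e-07), or −1.10 scaled. *cpc-1Δ* was higher than WT in 2% glucose medium (log2 fold change of 0.93, adjusted *P* = 5.4e-07, 0.39 scaled) and lower than WT in 0.1% glucose medium (−0.73, adjusted *P* = 6.4e-06, −0.71 scaled).

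*hgt-1*, the high-affinity transporter gene, went from 5.03, 4.87 and 5.45 RPKM in WT in 2% glucose medium to 1529 and 1470 RPKM in 0.1% glucose medium. In *cpc-1Δ*, it went from 18.8 and 17.4 RPKM to 982 and 1011 RPKM. The span from the lowest to the highest library was thus narrower in *cpc-1Δ* at both ends. The mean rose 293-fold in WT (log2 fold change of 7.94, standard error of 0.12, adjusted *P* = 1.5e-12, 196-fold scaled) and 55.2-fold in *cpc-1Δ* (5.71, standard error of 0.13, adjusted *P* = 1.3e-10, 56.1-fold scaled). The difference between these changes was −2.23 on the log2 scale (standard error of 0.17, adjusted *P* = 1.5e-06), or −1.68 scaled. Compared with WT, *cpc-1Δ* was 3.53-fold higher in 2% glucose medium (log2 fold change of 1.64, adjusted *P* = 6.5e-07, 2.35-fold scaled). Conversely, in 0.1% glucose medium WT was 1.5-fold higher than *cpc-1Δ* (log2 fold change of *cpc-1Δ* against WT of −0.59, adjusted *P* = 0.0027).

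*glt-1*, the low-affinity transporter gene, was listed at 466, 460 and 462 RPKM in WT in 2% glucose medium and at 490 and 528 RPKM in 0.1% glucose medium. In *cpc-1Δ*, the values were 795 and 793 RPKM in 2% glucose medium and 2814 and 2768 RPKM in 0.1% glucose medium. *cpc-1Δ* in 0.1% glucose medium therefore stood far above every other group. The log2 fold change with low glucose in WT was 0.14 as deposited (standard error of 0.05, adjusted *P* = 0.0445) and −0.44 scaled (adjusted *P* = 8.0e-06), so that no direction can be given. In *cpc-1Δ*, *glt-1* rose 3.52-fold (log2 fold change of 1.81, standard error of 0.06, adjusted *P* = 2.8e-09, 3.57-fold scaled). The strains differed by 1.68 in this change (standard error of 0.08, adjusted *P* = 3.4e-08), or 2.28 scaled. The *glt-1* level in 0.1% glucose medium of *cpc-1Δ* was 5.48 times that of WT (log2 fold change of 2.45, adjusted *P* = 1.1e-10, 2.46 scaled), the largest strain difference of the 7 genes in that medium.

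The ratio of the transporter levels within a library does not depend on the scale of the library. In WT in 2% glucose medium, *hgt-1* was at 0.0106 to 0.0118 of *glt-1*, that is, *glt-1* was 84.7 to 94.5 times as high. In 0.1% glucose medium, the order was reversed in WT, with *hgt-1* at 2.78 to 3.12 times *glt-1*. In *cpc-1Δ*, *glt-1* remained the higher gene in both media. The ratio of *hgt-1* to *glt-1* was 0.0219 to 0.0236 in 2% glucose medium and 0.349 to 0.365 in 0.1% glucose medium, where *glt-1* was 2.74 to 2.86 times as high as *hgt-1*. With 3-AT, the ratio was 0.00420 to 0.00671 in WT, 0.0235 to 0.0277 in *cpc-1Δ* and 0.0368 to 0.0400 with the transgene. These ratios are a description, and no test was made of them.

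**Figure D3:**
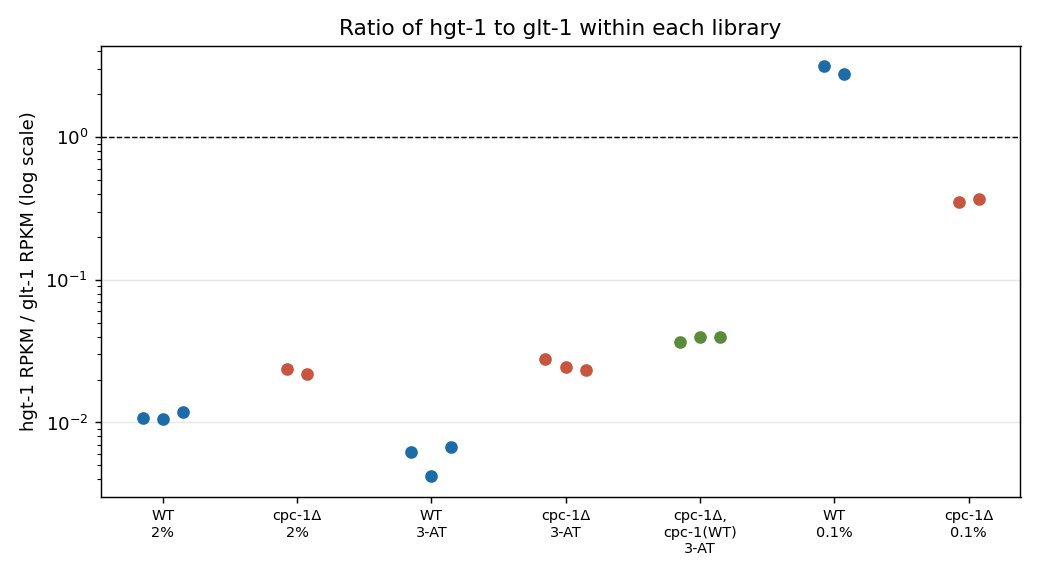
Ratio of *hgt-1* RPKM to *glt-1* RPKM (log axis) in each library, by strain and culture, with WT in blue, *cpc-1Δ* in red and *cpc-1Δ*, *cpc-1*(WT) in green. The dashed line marks equal levels. Only the 2 WT libraries in 0.1% glucose medium, at 2.78 and 3.12, lie above it.

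*gla-1*, the glucoamylase gene, had 16.3, 15.9 and 16.4 RPKM in WT in 2% glucose medium and 465 and 464 RPKM in 0.1% glucose medium. In *cpc-1Δ*, it had 11.8 and 13.8 RPKM in 2% glucose medium and 423 and 437 RPKM in 0.1% glucose medium. The rise was 28.7-fold in WT (log2 fold change of 4.76, standard error of 0.07, adjusted *P* = 2.1e-12, 19.2-fold scaled) and 33.6-fold in *cpc-1Δ* (4.97, standard error of 0.08, adjusted *P* = 8.2e-12, 34.1-fold scaled). The difference between the strains in this rise was 0.21 as deposited (95% interval of −0.04 to 0.45, adjusted *P* = 0.14), but 0.77 scaled (adjusted *P* = 6.6e-05), and 0.31 without *cpc-1Δ* replicate 2 in 2% glucose medium (adjusted *P* = 0.036). In 0.1% glucose medium, *cpc-1Δ* differed from WT by −0.11 (95% interval of −0.29 to 0.07, adjusted *P* = 0.29), and in 2% glucose medium by −0.32 (adjusted *P* = 0.0035), or −0.87 scaled.

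*inv*, the invertase gene, was the gene with the highest level of the 7 in WT in 0.1% glucose medium, at 2298 and 2250 RPKM, after 17.8, 19.2 and 21.5 RPKM in 2% glucose medium. In *cpc-1Δ*, it had 29.3 and 31.5 RPKM in 2% glucose medium and 1947 and 1974 RPKM in 0.1% glucose medium. The libraries in 0.1% glucose medium were thus far above the others in both strains. The rise was 117-fold in WT (log2 fold change of 6.80, standard error of 1.02, adjusted *P* = 1.6e-04, 78.0-fold scaled) and 64.5-fold in *cpc-1Δ* (5.97, standard error of 1.12, adjusted *P* = 0.0024, 65.5-fold scaled). The standard errors are large because WT with 3-AT was listed at 0, 19.8 and 20.0 RPKM, and this 0 entered the spread shared by all groups. When it was read as missing, the adjusted *P* values were 3.0e-12 and 4.7e-11, and the difference between the strains in this rise, −0.83, passed the test (adjusted *P* = 5.4e-04, against 0.68 with the 0). This difference was −0.25 after scaling (adjusted *P* = 0.94, with the 0). Such an isolated 0, with 5 RPKM or more in the rest of the group, was found for 749 genes, and it does not show that the mRNA was absent. *inv* is the only one of the 7 that overlaps another gene in the NC12 table, NCU04264, and how reads on the overlap were assigned is not given in the sources used here. The ratio of *inv* to *gla-1* within a library rose from between 1.10 and 1.31 in 2% glucose medium to between 4.85 and 4.94 in 0.1% glucose medium in WT, and from between 2.29 and 2.47 to between 4.52 and 4.60 in *cpc-1Δ*.

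Genes of conidiation also differed between these groups. The summed level of *con-6*, *con-8*, *con-10* and *con-13*, which are expressed as asexual spores form, was 25.4 to 28.0 RPKM in WT in 2% glucose medium and 355 to 360 RPKM in 0.1% glucose medium. In *cpc-1Δ*, it was 122 to 144 RPKM and 68.0 to 68.5 RPKM. *con-6* was listed at 0 in every library except those in 0.1% glucose medium, at 57.7 to 72.2 RPKM in WT and 5.70 to 7.0 RPKM in *cpc-1Δ*. With *eas*, the gene of a spore coat hydrophobin, the sum of all 5 markers was 28.0 to 557 RPKM and 412 to 413 RPKM in WT in the 2% and 0.1% glucose media, and 141 to 163 RPKM and 86.1 to 86.6 RPKM in *cpc-1Δ*. In WT in 2% glucose medium, *eas* was listed at 0 to 532 RPKM, and the lowest sum of 28.0 RPKM comes from a library with *eas* at 0. The part of conidiating cells in the low-glucose results was not tested.

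With 3-AT in 2% glucose medium, the transporter gene *hgt-1* fell in both strains and on both scales. *col-26* and *gla-1* rose in WT on both scales but not in *cpc-1Δ*. *hgt-1* had 1.92, 1.40 and 2.27 RPKM in WT with 3-AT (log2 fold change of −1.10, adjusted *P* = 7.4e-06, −0.86 scaled) and 9.67, 8.62 and 7.96 RPKM in *cpc-1Δ* (−0.97, adjusted *P* = 4.8e-05, −0.52 scaled). In each strain, all 3 libraries with 3-AT were below all those without it. As deposited, 2 of the 7 genes were higher and 3 lower in WT, where 10.1% of the genes tested were higher and 34.2% lower. After scaling, 3 were higher and 1 lower, against 22.4% and 17.1%. In *cpc-1Δ*, 0 were higher and 6 lower as deposited, against 4.28% and 43.8% of all genes, and 1 was higher (*rco-3*, 0.27) and 3 were lower (*cre-1*, *hgt-1* and *glt-1*) after scaling, against 14.7% and 16.2%. The summed level of the 4 *con* genes with 3-AT was 20.9 to 24.4 RPKM in WT, 36.2 to 40.2 RPKM in *cpc-1Δ* and 67.0 to 79.1 RPKM in the strain with the transgene, and *eas* was at 2271 to 2320 RPKM, 0 to 66.7 RPKM and 679 to 730 RPKM, and their part in the 3-AT results was not tested.

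The change of *col-26* with 3-AT differed between the strains. It was at 11.6, 13.5 and 14.6 RPKM in WT with 3-AT, above all 3 WT libraries without it, and at 15.2, 15.8 and 14.6 RPKM in *cpc-1Δ*, below both *cpc-1Δ* libraries without it. The log2 fold change was 0.59 in WT (adjusted *P* = 2.0e-04, 0.97 scaled) and −0.69 in *cpc-1Δ* (adjusted *P* = 1.5e-04), where the scaled value of −0.23 did not pass (adjusted *P* = 0.068). The difference between them was −1.28 (standard error of 0.13, adjusted *P* = 2.5e-05), or −1.20 scaled. *gla-1* was at 22.0, 22.0 and 23.1 RPKM in WT with 3-AT (0.44, adjusted *P* = 2.3e-04, 0.83 scaled) and at 10.1, 10.6 and 9.01 RPKM in *cpc-1Δ* (−0.34, adjusted *P* = 0.0030, 0.10 scaled, adjusted *P* = 0.27). These changes in the glucoamylase gene differed by −0.78 (standard error of 0.10, adjusted *P* = 1.3e-04), or −0.72 scaled. In all, 4 of the 7 genes passed the test of strain by 3-AT, all with negative values, against 22.8% of all genes with negative and 12.2% with positive values, and against 20.2% and 15.3% after scaling, when the count of the 7 was the same. The other 2 were *glt-1* (−0.69 as deposited, −0.60 scaled) and *cre-1* (−0.40 and −0.31). The *cre-1* call was lost without *cpc-1Δ* replicate 1 in 2% glucose medium (−0.38, adjusted *P* = 0.058).

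*glt-1* had 309, 334 and 338 RPKM in WT with 3-AT and 349, 353 and 339 RPKM in *cpc-1Δ* with 3-AT. It fell in *cpc-1Δ* on both scales (log2 fold change of −1.19, adjusted *P* = 4.2e-08, −0.71 scaled). In WT, it fell as deposited (−0.50, adjusted *P* = 7.3e-06), whereas the scaled value was −0.11 (adjusted *P* = 0.059). For *cre-1*, with 50.6, 56.1 and 58.4 RPKM in WT and 63.2, 63.1 and 58.8 RPKM in *cpc-1Δ*, the log2 fold changes were −0.42 (adjusted *P* = 7.8e-04, −0.03 scaled) and −0.81 (adjusted *P* = 1.4e-05, −0.34 scaled). *cre-1* thus fell on both scales in *cpc-1Δ* alone, and the test of that difference is the interaction given above. *rco-3* had 7.31, 8.24 and 8.03 RPKM in WT (0.06, adjusted *P* = 0.51, 0.42 scaled) and 13.5, 14.1 and 12.5 RPKM in *cpc-1Δ* (−0.18, adjusted *P* = 0.0437, 0.27 scaled), and no direction can be given for the latter. Its interaction was −0.23 (adjusted *P* = 0.061), and it passed without WT replicate 1 with 3-AT, without *cpc-1Δ* replicate 1 in 2% glucose medium or without *cpc-1Δ* replicate 2 with 3-AT (−0.29 to −0.27, adjusted *P* from 0.026 to 0.044). *inv* had 9.70, 11.6 and 9.50 RPKM in *cpc-1Δ* with 3-AT, below both libraries without it, with a log2 fold change of −1.48 (adjusted *P* = 0.27, −1.02 scaled). It passed the test when the isolated 0 of WT was read as missing (adjusted *P* = 6.8e-07) and when only the groups compared were fitted (adjusted *P* = 0.0012). In WT, the value for *inv* was −1.43 with the 0 (adjusted *P* = 0.26) and 0.03 without it (adjusted *P* = 0.84).

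**Figure D4:**
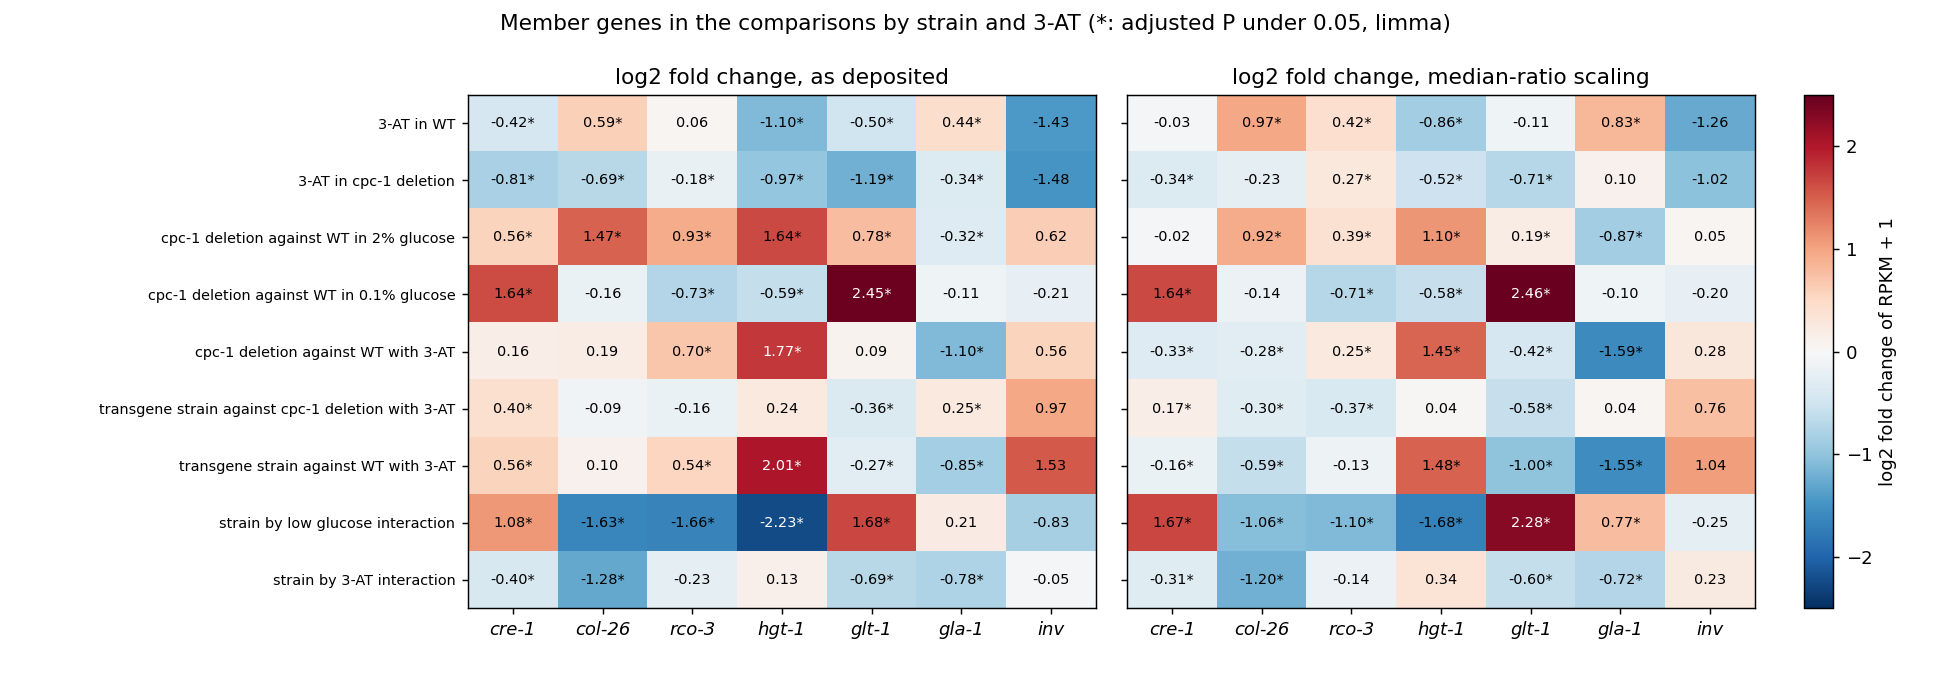
Log2 fold changes of RPKM + 1 of the 7 genes (columns) in 7 comparisons and in 2 interactions (rows), as deposited (left) and after median-ratio scaling (right). An asterisk marks an adjusted *P* under 0.05. *hgt-1* in *cpc-1Δ* with 3-AT against WT with 3-AT is 1.77 on the left and 1.45 on the right, whereas *cre-1* changes sign in that row, from 0.16 to −0.33.

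Between the strains in 2% glucose medium, 5 of the 7 genes were higher and 1 (*gla-1*) was lower in *cpc-1Δ* than in WT, against 47.1% and 7.37% of all genes. After scaling, 4 were higher, namely *col-26*, *rco-3*, *hgt-1* and *glt-1*, and *gla-1* was still lower, against 19.9% and 20.4%. The scaled difference of *glt-1* was 0.19 (adjusted *P* = 0.0062). *inv* differed by 0.62 as deposited (adjusted *P* = 0.65), which passed with the isolated 0 read as missing (adjusted *P* = 2.3e-04) and with only the groups compared (adjusted *P* = 0.0062), but by 0.05 after scaling. In 0.1% glucose medium, 2 were higher (*cre-1* and *glt-1*) and 2 lower (*rco-3* and *hgt-1*) on both scales, against 22.3% and 26.9% of all genes as deposited and 22.3% and 25.9% after scaling. For the strain by low glucose interaction, 2 genes had positive values (*cre-1* and *glt-1*) and 3 negative ones (*col-26*, *rco-3* and *hgt-1*) past the threshold, against 9.96% and 40.8% of all genes, and against 20.4% and 21.4% after scaling, when *gla-1* was added to the positive ones.

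In the presence of 3-AT, *hgt-1* was higher in *cpc-1Δ* than in WT (4.69-fold, log2 fold change of 1.77, standard error of 0.12, adjusted *P* = 7.0e-06, 3.31-fold scaled), *rco-3* was higher (0.70, adjusted *P* = 5.3e-05, 0.25 scaled) and *gla-1* was lower (−1.10, adjusted *P* = 8.9e-06, −1.59 scaled). As deposited, these were the 3 genes past the threshold, against 45.5% of the 8688 genes tested that were higher and 15.5% that were lower. After scaling, 2 were higher and 4 lower, against 25.9% and 27.9% of all genes. *cre-1*, *col-26* and *glt-1*, at 0.16, 0.19 and 0.09 as deposited, did not pass, and were lower past the threshold after scaling, at −0.33, −0.28 and −0.42 (adjusted *P* = 0.0012, 0.0063 and 6.2e-05). With upper-quartile scaling, *col-26* did not pass (−0.16, adjusted *P* = 0.083). As deposited, *cre-1* passed as higher in *cpc-1Δ* with a prior variance that follows the mean (0.16, adjusted *P* = 0.044), and *cre-1* (0.21, adjusted *P* = 0.043) and *col-26* (0.26, adjusted *P* = 0.024) did so without WT replicate 3. For *cre-1* and *col-26*, no direction can thus be given. Nor can one be given for *glt-1*, whose sign depended on the scale (0.09 as deposited, −0.42 scaled and −0.29 with upper-quartile scaling). *inv* was 0.56 with the isolated 0 of WT (adjusted *P* = 0.69) and −0.90 without it (adjusted *P* = 1.2e-04).

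When the deletion strain carried the transgene, *hgt-1* was higher and *gla-1* lower than in WT on both scales with 3-AT, as in *cpc-1Δ*, and *glt-1* was lower than in both other strains. *hgt-1* was listed at 9.68, 11 and 10.8 RPKM, above all *cpc-1Δ* libraries by a small margin and far above the WT libraries. It differed from *cpc-1Δ* by 0.24 (95% interval of −0.04 to 0.53, adjusted *P* = 0.18, 0.04 scaled) and from WT by 2.01 (standard error of 0.12, adjusted *P* = 3.3e-06, 1.48 scaled). *gla-1*, at 12.0, 11 and 13 RPKM, was below WT (−0.85, adjusted *P* = 3.3e-05, −1.55 scaled), and its difference from *cpc-1Δ* was 0.25 as deposited (adjusted *P* = 0.0449) and 0.04 scaled (adjusted *P* = 0.73). The deposited value of *gla-1* did not pass without replicate 1 or 3 of either strain (0.19 to 0.26, adjusted *P* from 0.091 to 0.13). *glt-1*, at 263, 276 and 274 RPKM, was below every other library for this gene, with −0.36 against *cpc-1Δ* (adjusted *P* = 0.0015, −0.58 scaled) and −0.27 against WT (adjusted *P* = 0.0023, −1.0 scaled).

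*cre-1* had 84.2, 78.2 and 82.5 RPKM in the strain with the transgene, above all other libraries with 3-AT. It was higher than in *cpc-1Δ* (0.40, adjusted *P* = 0.0030, 0.17 scaled, adjusted *P* = 0.046), but upper-quartile scaling ended this call (0.089, adjusted *P* = 0.31), and against WT the sign depended on the scale (0.56 as deposited, −0.16 scaled). *col-26* had 13.9, 14.6 and 14.1 RPKM, *rco-3* 11.5, 12.6 and 11.4 RPKM and *inv* 21.7, 19.8 and 21.4 RPKM. Compared with *cpc-1Δ*, *col-26* and *rco-3* were lower only after scaling (−0.30 and −0.37). *inv* was 2.05-fold higher than in *cpc-1Δ*, without overlap, with a log2 fold change of 0.97 (adjusted *P* = 0.55, 0.76 scaled). It passed when the isolated 0 of WT was read as missing (adjusted *P* = 1.5e-04) and when only the groups compared were fitted (adjusted *P* = 8.5e-04). In all, 2 of the 7 genes were higher and 1 lower than in *cpc-1Δ*, against 29.4% and 4.51% of all genes, and 3 were higher and 2 lower than in WT, against 54.3% and 8.47%. After scaling, 1 was higher and 3 were lower than in *cpc-1Δ*, against 16.3% and 12.6%, and 1 (*hgt-1*) was higher and 4 were lower than in WT, against 23.7% and 26.3%. The comparisons of the 3 strains with 3-AT share their libraries. The *cpc-1* level of *cpc-1Δ*, *cpc-1*(WT) was 15.9-fold below that of WT (26.4-fold scaled). The transgene carries the untranslated leader of *ccg-1*, and whether the deposited values count reads on the leader of *cpc-1* was not tested. Whether the libraries of this strain were processed together with the others is not given in the sources used here.

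A list of 18 other genes, drawn up for sugar transport, glucose signaling and starch breakdown, was read beside the 7. It also holds *ccg-1*, and 5 of its genes have a locus tag only in the NC12 table, which gives them no role. In WT, 15 of the 18 were higher and 1 was lower in 0.1% glucose medium, against 45.0% and 14.3% of all genes, with a median log2 fold change of 3.42, against 0.40 over all genes. In *cpc-1Δ*, 10 were higher and 1 was lower, against 13.3% and 14.9% of all genes, with a median of 0.64, against 0.00 over all genes. After scaling, the counts were 13 and 1 in WT (median, 2.88), against 26.3% and 26.8% of all genes, and 11 and 1 in *cpc-1Δ* (median, 0.67), against 14.4% and 13.6%. In 0.1% glucose medium, 13 of the 18 were lower and 1 was higher in *cpc-1Δ* than in WT, against 26.9% and 22.3% of all genes, and 11 were lower after scaling, against 25.9%. The strain by low glucose interaction was negative past the threshold for 14 of the 18 and positive for 1, against 40.8% and 9.96% of all genes, and for 9 and 2 after scaling, against 21.4% and 20.4%. Because the list was made with results of these data known, these counts are a description.

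Among these genes, those for the transport of cellodextrins, the short sugars from cellulose, differed strongly between the strains. *cdt-2* was at 188 to 191 RPKM in WT and at 4.31 to 4.71 RPKM in *cpc-1Δ* in 0.1% glucose medium, after 0.40 to 0.927 RPKM and 0.568 to 1.07 RPKM in 2% glucose medium. *cdt-1* was at 193 to 206 RPKM in WT and at 32.2 to 37.9 RPKM in *cpc-1Δ* in 0.1% glucose medium. The interaction was −5.22 for *cdt-2* (adjusted *P* = 7.7e-08, −4.89 scaled) and −3.03 for *cdt-1* (adjusted *P* = 4.0e-08, −2.49 scaled). NCU04963, with no name in the table, rose from between 17.0 and 18.2 RPKM to between 1947 and 1968 RPKM in WT, and from between 8.70 and 9.34 RPKM to between 397 and 408 RPKM in *cpc-1Δ*. *ccg-1*, a glucose-repressible gene whose promoter drives the transgene, rose from a mean of 1120 RPKM to 13005 RPKM in WT and from 2700 RPKM to 5430 RPKM in *cpc-1Δ*. *vib-1*, which encodes a transcription factor, was the 1 gene of the list that fell in WT and in *cpc-1Δ* (log2 fold changes, −0.77 and −0.49, or −1.34 and −0.47 scaled). It was also the 1 gene of the list called higher in *cpc-1Δ* in 0.1% glucose medium (0.72, adjusted *P* = 9.1e-06). NCU00575, chosen after its values were seen, was at 288 to 292 RPKM in *cpc-1Δ* and at 132 to 133 RPKM in WT in that medium, a log2 fold change of 1.12. It did not pass (adjusted *P* = 0.62), but did so when an isolated 0 in *cpc-1Δ* with 3-AT was read as missing (adjusted *P* = 2.5e-07).

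*gla-2*, which the table places next to *rco-3*, rose in WT from between 4.51 and 5.58 RPKM to between 77.3 and 84.2 RPKM (log2 fold change of 3.80, standard error of 0.82, adjusted *P* = 0.0020). In *cpc-1Δ*, it was at 5.81 and 6.46 RPKM in 2% glucose medium and at 0 and 14.5 RPKM in 0.1% glucose medium, with a log2 fold change of −0.86 (adjusted *P* = 0.55). When this isolated 0 was read as missing, the change in *cpc-1Δ* was 1.12 (adjusted *P* = 0.0105), so that its direction rests on 1 library. The interaction was −4.66 (standard error of 1.21, adjusted *P* = 0.0080, −3.96 scaled), and −2.68 with the 0 read as missing (adjusted *P* = 7.8e-05). These neighboring genes, *rco-3* and *gla-2*, were thus both higher in WT in 0.1% glucose medium than in any *cpc-1Δ* group. The α-amylase gene *gh13-1* rose from a mean of 135 RPKM to 565 RPKM in WT (2.06, adjusted *P* = 3.2e-11) and from 253 RPKM to 292 RPKM in *cpc-1Δ* (0.21, adjusted *P* = 0.0097), with an interaction of −1.85 (adjusted *P* = 4.9e-09, −1.25 scaled). NCU05627 rose from a mean of 27.2 RPKM to 610 RPKM in WT and from 23.4 RPKM to 549 RPKM in *cpc-1Δ*. Its interaction was 0.06 (adjusted *P* = 0.56), but 0.64 scaled (adjusted *P* = 6.1e-05).

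**Figure D5:**
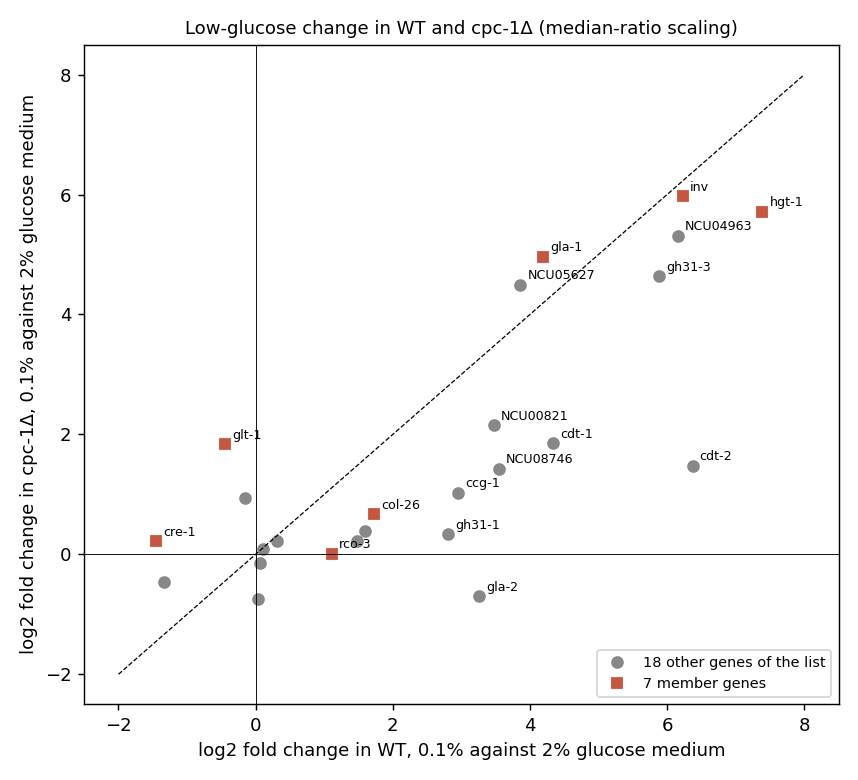
Scaled log2 fold change with low glucose in *cpc-1Δ* (y axis) against that in WT (x axis) for the 7 genes (red squares) and the 18 other genes of the list (gray circles). The dashed line marks equal change. *cdt-2* and *gla-2* lie far below the line, *gla-1* and *NCU05627* above it, and *cre-1* and *glt-1* to the upper left of the crossing of the zero lines.

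Over the 18 libraries, after scaling, the genes whose log2 levels were most like those of each of the 7 were sought among the 4592 genes whose mean reached 10 RPKM. They were *ace-3* and NCU03748 for *cre-1* (Pearson's *r*, 0.98 for both), *cot-1* and NCU00223 for *col-26* (0.94 for both) and NCU01339 and NCU04800 for *rco-3* (0.89 for both). For the transporters, they were NCU01064 (0.98) and NCU00936 (0.97) for *hgt-1*, and *atp-2* (0.91) and *tca-4* (0.90) for *glt-1*. For the enzymes, they were NCU05627 (0.98) and *kin-1* (0.95) for *gla-1*, and *aab-1* (0.95) and NCU01064 (0.93) for *inv*. NCU01064 thus stood on the lists of both *hgt-1* and *inv*, which had an *r* of 0.93 with each other. The 18 points share strains, cultures and a common scaling, and these values are a description.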

How the data were processed

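mRNA-seq of mycelia was analyzed in 18 libraries in 7 groups taken from the sample labels. The authors deposited RPKM values, 1 per transcript and library. TopHat2 and Cufflinks are named, without versions, in the submitters' processing notes. The genome build, the annotation and the total of reads behind the RPKM values are not given in the sources used here. The labels name Illumina TruSeq reagents. For the 3 *cpc-1Δ*, *cpc-1*(WT) libraries, the file headings read GCN4WT, and the label was followed without resolving this. The depth is unknown, so that no counting interval was computed.

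Each library had 10792 entries, of which 7 carried a remark and were not used, and RPKM values were summed over the transcripts of a gene (9730 genes; each of the 7 genes had 1 transcript). All comparisons between strains with 3-AT, that of *cpc-1Δ* with WT included, lack the 124 genes that had no number in at least 1 library of *cpc-1Δ*, *cpc-1*(WT). Names came from an NC12 table from RefSeq, which matched 9729 genes. Neighbors and overlaps were found from the gene positions in it, and no coordinates are given here. The limma package (3.58.1, under R 4.3.3) was run on log2(RPKM + 1) with a coefficient per group and Benjamini-Hochberg adjustment over all genes above 0 in at least 1 library. Comparisons between strains with 3-AT used 9 libraries (8688 genes), and all others used the 15 WT and *cpc-1Δ* libraries (9013 genes). The median ratio was taken over 5852 genes. The procedure was tested on simulated data for low glucose in WT alone, with 200 of 9013 genes changed by 1 on the log2 scale. It recovered 71% of these, and 5.96% of the 151 genes called were unchanged ones. The simulated libraries had independent noise and no difference in scale between groups. They also held far fewer changed genes than the 5348 called in the real comparison. These shares therefore do not give the error of the calls reported here. Matplotlib 3.10.9 drew the figures, and the tables were built in Python 3.11.15 (pandas 2.3.3 and NumPy 2.4.6).

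The alternatives were a pseudocount of 0.1, median-ratio and upper-quartile scaling, a filter of 1 RPKM, all 18 libraries or only the groups compared in the fit, a prior variance that follows the mean, the replicate number as a block, the first transcript alone and leaving out each library in turn. Reading an isolated 0 as missing was chosen after seeing the data. The genes named are the 7 genes, the list of 18 (of 19 fixed, 1 was left out because the table gave another symbol), the 2 genes most like each of the 7, 5 conidiation markers and *cpc-1*. Of the list, *ccg-1*, NCU04963, *gh13-1*, *cdt-1* and *cdt-2* are named for their level or change, and *gla-2*, *vib-1*, NCU00575 and NCU05627 were chosen after their values were seen. Product names were not in the table, so that the list was not extended by them. The 7 genes and the lists were chosen with earlier results of these data known. Sequences were not analysed here.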

Additional observations from a re-analysis of the deposited data

Results flagged for a closer look

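For 5 of the 7 genes, the change with low glucose differed between the strains in the test of the interaction (limma, adjusted *P* under 0.05). The difference, as the log2 fold change in *cpc-1Δ* minus that in WT, was 1.08 for *cre-1* (adjusted *P* = 2.9e-05), −1.63 for *col-26* (adjusted *P* = 4.0e-06), −1.66 for *rco-3* (adjusted *P* = 1.6e-07), −2.23 for *hgt-1* (adjusted *P* = 1.5e-06) and 1.68 for *glt-1* (adjusted *P* = 3.4e-08). After scaling, the signs were the same, with values of 1.67, −1.06, −1.10, −1.68 and 2.28. Of the groups in this test, WT in 2% glucose medium alone had low RPKM sums, at 363953 to 370927, against 515150 to 546387. A difference in processing between these libraries, beyond their scale, was not tested.

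For 4 genes, the change with 3-AT differed between the strains in the same kind of test. The difference was −0.40 for *cre-1* (adjusted *P* = 0.018), −1.28 for *col-26* (adjusted *P* = 2.5e-05), −0.69 for *glt-1* (adjusted *P* = 2.6e-05) and −0.78 for *gla-1* (adjusted *P* = 1.3e-04). The scaled values were −0.31, −1.20, −0.60 and −0.72. Both tests use the same 5 libraries of the 2% glucose medium without 3-AT, so that they are not independent.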

How the results depend on the processing

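Of 770 log2 fold changes of the 7 genes under alternatives other than leaving out a library, 705 kept their direction and their side of the threshold, 19 lost the call, 18 gained it and 28 changed sign, of which 25 came with median-ratio or upper-quartile scaling. The total includes settings that leave these fold changes as they were. The filter and the fit of all 18 libraries kept 77 of 77 each, and the first transcript alone kept 76 of 77. Median-ratio and upper-quartile scaling kept only 57 of 77 each. Apart from the scale itself, the causes were not tested. With these scalings (median ratio, then upper quartile where both changed sign), signs changed for *glt-1* with low glucose in WT (−0.44 and −0.52), *rco-3* with low glucose in *cpc-1Δ* (0.013), *rco-3* (0.27 and 0.25) and *gla-1* (0.10 and 0.077) with 3-AT in *cpc-1Δ*, *cre-1* between the strains in 2% glucose medium (−0.024) and *gla-1* between them in 0.1% glucose medium (0.025). Between *cpc-1Δ* and WT with 3-AT, they changed for *cre-1* (−0.33 and −0.21), *col-26* (−0.28 and −0.16) and *glt-1* (−0.42 and −0.29), and the number of the 7 genes past the threshold was 6 and 5, against 3. For the transgene strain against the deletion strain, they changed for *hgt-1* (−0.044) and *gla-1* (−0.039), and for the transgene strain against WT for *cre-1* (−0.16 and −0.12), *col-26* (−0.59 and −0.55) and *rco-3* (−0.13 and −0.0917). The strain by 3-AT interaction of *inv*, −0.05, was 0.95 with a pseudocount of 0.1 and 0.23 and 0.24 with the scalings. Of all genes, 2786 and 2821 passed with 3-AT in *cpc-1Δ* after the scalings, against 4335, and with low glucose in *cpc-1Δ* 1543 passed when only the groups compared were fitted, against 2538.

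With the isolated 0 read as missing, *inv* came to 0.032 with 3-AT in WT and to −0.90 between *cpc-1Δ* and WT with 3-AT. Leaving out each library in turn gave 443 of 469 values with the same direction and side of the threshold. The ranges with a change of sign were −0.066 to 0.049 for *rco-3* with low glucose in *cpc-1Δ*, −2.17 to 0.032 for *inv* with 3-AT in WT, −0.90 to 1.30 for *inv* between *cpc-1Δ* and WT with 3-AT, and −1.52 to 0.68 for its strain by 3-AT interaction. Of the 7 genes, 3 to 5 passed between *cpc-1Δ* and WT with 3-AT. Where a group of 2 lost a library, the other was assumed to vary like the remaining groups. No shared effect of the replicate number was seen, since same-numbered libraries had correlations of −0.084 to 0.087 in their deviations over 4238 genes. This does not settle whether the samples were paired by design. With the replicate block, 74 of 77 values kept their call, and *glt-1* with low glucose in WT (0.14), *rco-3* with 3-AT in *cpc-1Δ* (−0.17) and *gla-1* in the transgene strain against the deletion strain (0.25) lost it. Depth is unknown, so that its limit on low levels, such as that of *hgt-1* in WT with 3-AT, cannot be given.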

Other observations

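NCU04264, the gene that overlaps *inv* in the NC12 table, was listed at 4.95, 0 and 0 RPKM in the WT libraries with 3-AT, where *inv* was at 0, 19.8 and 20.0 RPKM. It was at 12.7, 0 and 12.0 RPKM in WT and at 0 and 12.0 RPKM in *cpc-1Δ* in 2% glucose medium, and at 0 in all 4 libraries in 0.1% glucose medium, in which *inv* was highest. With 3-AT, it was at 7.03, 7.30 and 0 RPKM in *cpc-1Δ* and at 8.48, 0 and 9.02 RPKM in the transgene strain. Values of 0 and of several RPKM thus stood side by side within 5 of the 7 groups. The library of WT with 3-AT in which *inv* was at 0 held an isolated 0 for 39 genes.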
